A study of Cicer arietinum with 5 samples.

Results

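The data described here concern CG dyads with an intermediate methylation level in seeds of the chickpea cultivar Himchana 1, which has small seeds. A CG dyad is a CG on the forward strand together with the CG that lies opposite to it on the reverse strand. A total of 11961 of the 359808 dyads that carried 10 or more reads on both strands in all 5 libraries (3.32%) had a mean level of 20 to 70% and a strand difference below 40 percentage points. The level of a strand was its mean over the 5 libraries and the level of a dyad was the mean of its 2 strands. The 299498 dyads above 85% (83.2% of all), called high dyads here, served for comparison. Distances, nearest dyads and rows of dyads below refer to these 359808 dyads only. Of the 4192280 CG dyads listed in any library, others can lie between them.

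Whole genome bisulphite sequencing was carried out on genomic DNA of whole seeds from field-grown plants at mid-maturation (S5, 3 libraries) and late-embryogenesis (S3, 2 libraries). Bisulphite turns unmethylated cytosine into uracil, so the methylation level is the percentage of reads that still show C. Seeds of 1 cultivar were pooled within each replicate, and no other genotype or treatment enters the comparison. A level between the extremes in such a pool can belong to some cells, to some alleles, to some copies of a repeat or to part of the molecules of every cell, and these cannot be told apart in the deposited tables.

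In plants, CG methylation is kept through cell division by MET1, which copies the mark of the old strand onto the new strand of the same dyad. CHG methylation, where H is A, C or T, is kept mainly by CMT3, and CHH methylation by CMT2 and by DRM2 with small RNAs. Transposable elements and other repeats usually carry all of these contexts, whereas the bodies of many active genes carry CG methylation alone.

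The libraries held 24562004 to 27776981 listed cytosines, with a median of 12 to 14 reads at a listed position. Only cytosines called methylated were listed, and a listed cytosine had at least 3 methylated reads at a coverage of 10, 15 or 20 and 4 at a coverage of 40. A level of 20% was therefore out of reach at 10 reads, and the low end of the band held few dyads of low coverage. Of the 410 intermediate dyads at 20 to 30%, none had a mean coverage of 10 to 15 reads and 117 had 100 or more. S5 replicate 2 was the shallowest library. Across the intermediate dyads, S5 replicate 3 was as close to S3 as to the other S5 libraries. The Pearson correlation of its levels was 0.592 and 0.589 with S3 replicates 1 and 2, 0.585 with S5 replicate 1 and 0.550 with S5 replicate 2. The same correlation was 0.744 between S5 replicates 1 and 2 and 0.676 between the S3 replicates (n = 11961 dyads, which share libraries and depth).

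The number of dyads grew steadily towards high levels. The intermediate band held 410 dyads at 20 to 30%, 864 at 30 to 40%, 1611 at 40 to 50%, 2845 at 50 to 60% and 6231 at 60 to 70%. Just inside the limits, 181 dyads lay at 20 to 25% and 3931 at 65 to 70%, against 155 at 15 to 20% and 7977 at 70 to 75% just outside. A further 1751 dyads of 20 to 70% had a strand difference of 40 points or more and were left out, and 383 intermediate dyads had a difference of 35 to 40 points. The band thus has no gap at either limit and is mostly the lower shoulder of the highly methylated dyads. These values follow from the way the dyads were chosen and are a description.

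**Figure D1:**
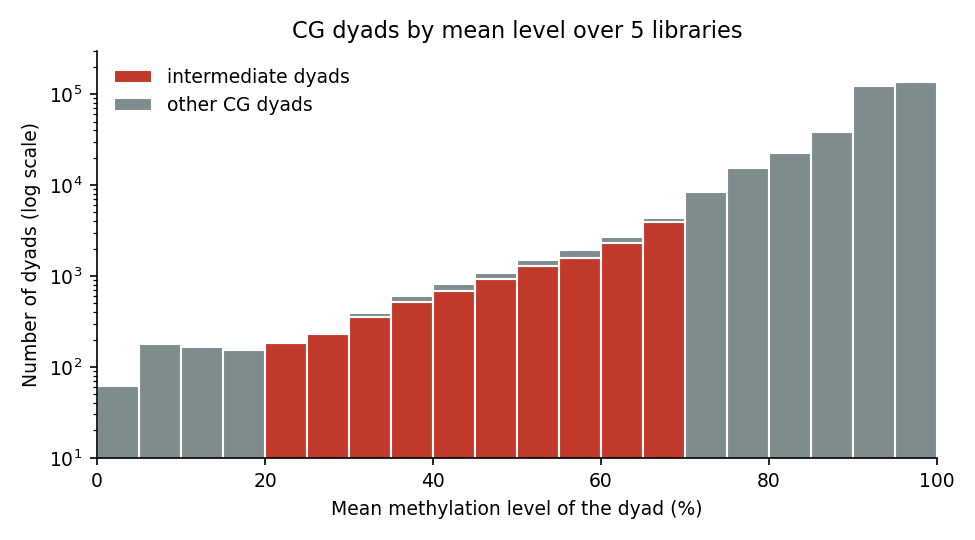
Number of CG dyads (log scale) by mean methylation level (%) over the 5 libraries in steps of 5 points; red bars are the 11961 intermediate dyads and grey bars all others. The bars grow from 181 intermediate dyads at 20 to 25% to 3931 at 65 to 70% with no break at either limit.

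The intermediate level was seen again in libraries that had no part in the choice. When dyads were chosen by the same limits in 4 libraries and read in the fifth, the held-out level averaged 58.4% ± 1.65 (SD, n = 5 libraries). It was 56.9%, 56.7% and 58.3% in S5 replicates 1, 2 and 3, and 60.7% and 59.3% in S3 replicates 1 and 2. Between 69.1% and 78.2% of the chosen dyads that could be read lay inside 20 to 70% in the held-out library. Above 85% there were 1.67% to 3.34% of them. Depending on the library, 657 to 3185 chosen dyads fell short of the coverage minimum there and could not be read. The held-out levels and shares leave these dyads out. Only cytosines called methylated are listed, so dyads that fell low in the held-out library can be among them. High dyads chosen in the same way read 93.6% to 94.3% in the held-out library. Within the full set, 5338 intermediate dyads (44.6%) were inside 20 to 70% in all 5 libraries and 8318 (69.5%) in 4 or 5 of them. In 515 (4.31%) at least 1 library read above 85%.

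Both strands of an intermediate dyad carried a similar level, within the limit of the choice. The median strand difference was 7.89 points in intermediate dyads and 2.48 points in high dyads, and 59.3% of the intermediate dyads had strands within 10 points of each other. The departure of each library from the mean of its stage was taken for each strand and was partly shared by the strands of a dyad. Its Pearson correlation between strands was 0.224 in intermediate dyads and 0.0158 in high dyads (59805 and 1497490 points of dyad and library). Reads of the forward and the reverse strand come from separate strands of DNA, but both strands of the same fragment can be read. Whether sampling of the same molecules adds to this correlation was not tested. The stage difference of the forward strand correlated with that of the reverse strand at 0.502 in intermediate dyads, against 0.0565 in high dyads. The strands had the same sign of difference in 63.4% of intermediate dyads, whereas 49.2% of high dyads did. A dyad that differs much between libraries or stages can hardly keep the mean level of a high dyad. A stage difference of 25 points or more was found in 509 intermediate dyads and 7 high dyads. The lower correlations and sign share of high dyads can therefore follow from their choice, and nothing is read from these contrasts.

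Libraries of the same stage also varied more at intermediate dyads. The chi-square of methylated reads over libraries of a stage was divided by its degrees of freedom, where 1 stands for read sampling alone. Its value was 1.77 in intermediate dyads and 1.05 in high dyads. Their choice by a high mean level leaves high dyads little room for such spread, so this contrast is a description. In the per-dyad test of this spread at a q of 0.01 or less (chi-square test with Benjamini-Hochberg adjustment over all dyads), 107 intermediate dyads were called. Over all dyads 0.0923% were called. Most of these calls lay at deeply covered places. Of the 107, 79 had more than 3 times the median coverage in a library, and 9 intermediate dyads were called when such dyads were left out before the choice. Whether the calls at high coverage come from copies that align to one place was not tested.

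The position of the intermediate dyads was compared with that of all dyads. They were found most often on unplaced scaffolds, which are assembled sequences with no place on the 8 chromosomes Ca1 to Ca8. Of the intermediate dyads 73.3% (8765) lay on unplaced scaffolds, whereas 56.9% of all dyads did. The intermediate share was 4.28% of the dyads on unplaced scaffolds (95% exact binomial interval 4.19% to 4.37%) and 2.06% on the chromosomes (1.99% to 2.13%). Among chromosomes it was highest on Ca8 (2.68%, 2.31% to 3.08%) and lowest on Ca2 (1.89%, 1.68% to 2.11%), and these 2 intervals do not overlap. The intervals cover counting error only, since neighbouring dyads are not independent.

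Intermediate dyads were spread widely. Of 4906 sequences with a dyad, 2505 held an intermediate one, and 345 of the 347 chromosomal bins of 1 Mb with 200 or more dyads held at least 1. The median bin had 1.96% intermediate dyads, and the highest share was 7.61% on Ca7 between 9 and 10 Mb, with 22 of 289 dyads. The 10 unplaced scaffolds with most intermediate dyads together held 474 of them, or 3.96%.

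Coverage was higher at intermediate dyads. The mean coverage of a strand was 63.6, 49.3 and 61.9 reads in S5 and 63.1 and 61.3 reads in S3 at intermediate dyads, against 29.9, 21.3 and 29.2 reads in S5 and 30.3 and 30.2 reads in S3 at high dyads. The ratio was 2.13-fold and the difference had the same direction in all 5 libraries (exact sign-flip test over libraries, two-sided p = 0.063, the smallest value that 5 libraries allow). The libraries share the same dyads, so this p concerns libraries and not places. The intermediate share was 1.58% of dyads with a mean coverage of 10 to 15 reads, 2.86% at 20 to 25, 5.11% at 25 to 30 and 6.34% at 60 to 100 reads. More than 3 times the median coverage in a library was found at 20.1% of intermediate dyads and 7.42% of high dyads. The log2 ratio of coverage was 0.10 on the chromosomes and 0.26 among dyads of up to 3 times the median, compared with 1.09 in all, so the coverage gap lay mainly on unplaced scaffolds and at deeply covered dyads.

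A set of evenly spaced dyads was noticed on the unplaced scaffolds after the distances were examined. Among pairs of intermediate dyads on unplaced scaffolds that lay within 650 bp, 250 pairs were exactly 100 bp apart, 200 pairs 200 bp, 121 pairs 300 bp and 108 pairs 400 bp apart. The median distance between 150 and 650 bp held 4 pairs. Multiples of 100 bp made up 17.9% of these pairs, whereas they were 1.65% of pairs of intermediate dyads on the chromosomes. In high dyads on unplaced scaffolds they made up 2.93% of the pairs. The spacing was most frequent just above the band, with 47.1% of pairs among dyads of more than 70 and up to 85% on unplaced scaffolds. Even spacing is what tandem repeats show, in which a unit is copied head to tail.

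**Figure D2:**
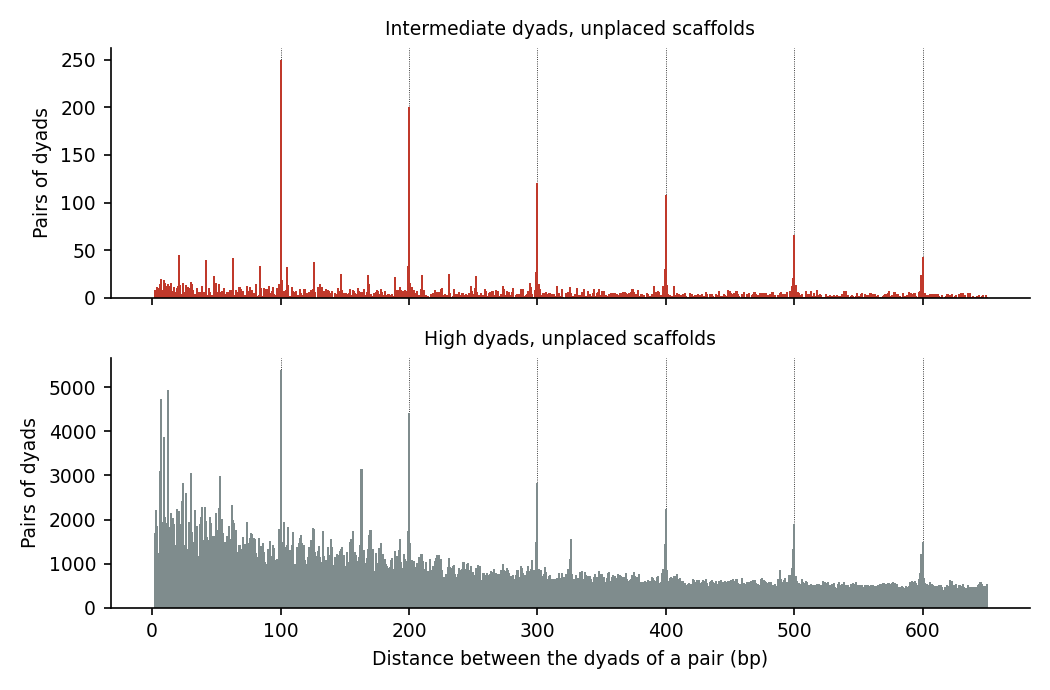
Number of pairs of CG dyads on unplaced scaffolds by their distance (bp) for intermediate dyads (above) and high dyads (below), with dotted lines at multiples of 100 bp. In intermediate dyads 250 pairs stand at 100 bp and 200 pairs at 200 bp, against a median of 4 pairs per distance between 150 and 650 bp.

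In total, 3065 intermediate dyads (25.6%) had another dyad of any level exactly 100 bp away, compared with 6.51% of high dyads. On unplaced scaffolds alone this was found in 33.4% of intermediate dyads (95% exact binomial interval 32.4% to 34.4%) and in 10.5% of high dyads (10.3% to 10.7%). These evenly spaced intermediate dyads had a median coverage of 34.2 reads, a level of 60.2% at S5 and 63.8% at S3, and 1.22 listed CHG cytosines in their flanks of 100 bp. The other 8896 intermediate dyads had a median coverage of 25.5 reads, a level of 55.0% at S5 and 56.3% at S3, and 3.32 CHG cytosines.

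A shorter spacing was found in rows of dyads on a pair of scaffolds, named here after their values were seen. The longest unbroken row of intermediate dyads held 25 dyads at scaffold3155 5112 to 5722, with a mean coverage of 3572 reads and a level of 36.6%. The next one held 22 dyads at scaffold287 7039 to 7565, with 1475 reads and a level of 44.9%. In both, the median distance between neighbours was 21 bp. The row on scaffold3155 had levels of 34.8%, 34.8% and 35.8% in S5, against 39.9% and 37.9% in S3, with no overlap. This coverage is far above the median of every library, and how many copies of these sequences were read together was not tested.

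Methylation in the other contexts was then examined within 100 bp of each dyad, since these readouts were not used in the choice. The tables name no context, so a cytosine with a listed partner 1 base downstream on the other strand counted as CG, and one whose partner lay at 2 bases but not at 1 base as CHG. All others formed an asymmetric class, taken to be mostly CHH. It also holds any CG or CHG cytosine whose partner was listed in no library, so other contexts below can include such cytosines. Fewer CHG cytosines were listed near intermediate dyads. Their number per dyad was 2.77, 2.69 and 2.76 in S5 and 2.83 and 2.84 in S3 near intermediate dyads, against 5.55, 5.44 and 5.54 in S5 and 5.58 and 5.60 in S3 near high dyads. The mean was lower near intermediate dyads in all 5 libraries, with 2.78 ± 0.0583 against 5.54 ± 0.0642 (SD, n = 5; exact sign-flip test, p = 0.063).

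The CHG cytosines that were listed there also had a lower level. Over positions listed in all 5 libraries, the CHG level was 72.4%, 71.7% and 73.4% in S5 and 76.0% and 75.4% in S3 near intermediate dyads. Near high dyads it was 83.9%, 83.2% and 84.6% in S5 and 86.5% and 86.2% in S3. The mean difference was -11.1 points, from -11.5 to -10.5 in the single libraries (exact sign-flip test, p = 0.063).

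The asymmetric class was lower in level near intermediate dyads, and the difference in number depended on the dyads compared. The asymmetric level was 31.4% ± 2.53 near intermediate dyads and 41.1% ± 2.76 near high dyads (SD, n = 5), lower in all 5 libraries (exact sign-flip test, p = 0.063). The number per dyad was 12.7 ± 1.22 near intermediate dyads and 13.1 ± 1.32 near high dyads, lower in 4 of 5 libraries (exact sign-flip test, p = 0.125). That number depended on where the dyads lay. On the chromosomes it was 6.88 near intermediate dyads and 11.8 near high dyads, and on unplaced scaffolds 14.9 near intermediate dyads and 14.2 near high dyads. Against dyads above 95% its direction turned, with 0.723 more asymmetric cytosines near intermediate dyads.

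**Figure D3:**
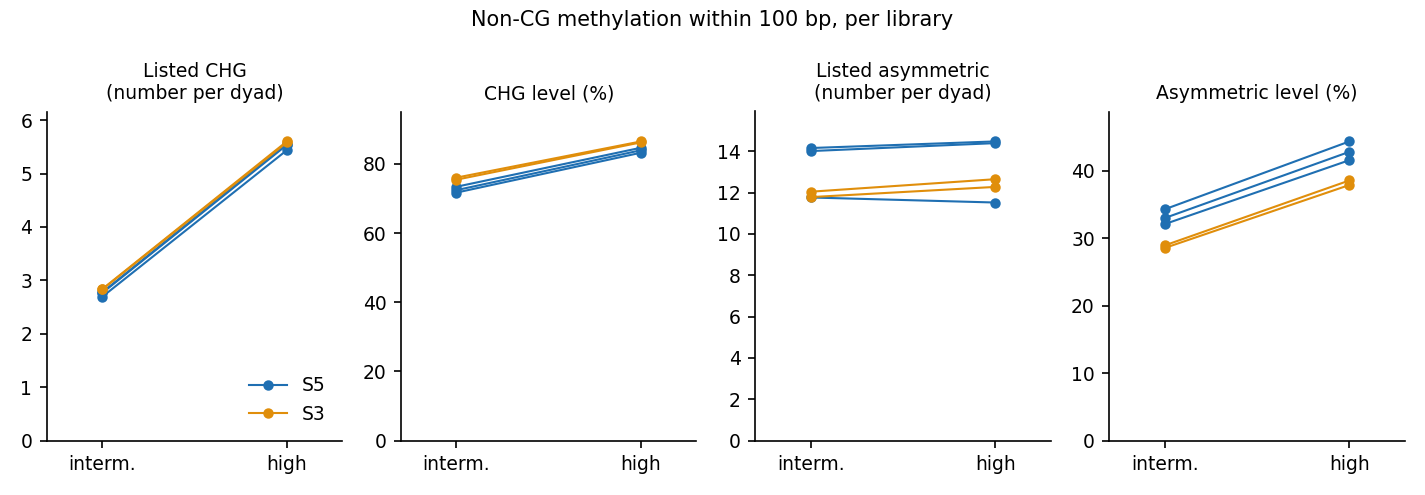
Listed CHG and asymmetric cytosines per dyad and their mean level (%) within 100 bp of intermediate dyads (left in each panel) and high dyads (right), with 1 line per library, S5 in blue and S3 in orange. CHG number and level and asymmetric level are lower near intermediate dyads in all 5 libraries, whereas the asymmetric number (12.7 near intermediate and 13.1 near high dyads on average) is lower in 4 of 5.

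Because coverage bears on how many cytosines can be called, the same values were taken for dyads of like coverage, although the coverage of the flanking cytosines was not matched. Among dyads with a mean coverage of 20 to 25 reads, an alternative added after seeing the data, 2.64 CHG cytosines were listed near intermediate dyads and 4.91 near high dyads. The CHG level was 79.5% near intermediate dyads and 85.4% near high dyads. The number of asymmetric cytosines was 9.22 near intermediate dyads and 11.6 near high dyads. The asymmetric levels lay closer together, at 41.4% near intermediate dyads and 43.8% near high dyads, so the asymmetric difference was -2.37 points in place of -9.66. On the chromosomes the CHG level was 72.6% near intermediate dyads and 85.4% near high dyads, and the asymmetric level was 38.8% near intermediate dyads and 43.5% near high dyads.

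Intermediate dyads were therefore divided by what was listed within 100 bp of them in any library, a division chosen after the data were seen. Neither CHG nor asymmetric cytosines were listed near 1183 intermediate dyads (9.89%), called CG-only here. Asymmetric cytosines without CHG were listed near 4017 (33.6%), CHG without asymmetric near 78 (0.652%) and both near 6683 (55.9%). In high dyads, asymmetric cytosines without CHG were found near 10.8%, both near 75.9% and neither near 11.96%. The intermediate share was 7.23% of dyads with asymmetric cytosines and no CHG nearby (95% exact binomial interval 7.02% to 7.45%), against 2.55% of dyads with both (2.49% to 2.61%) and 3.09% of CG-only dyads (2.92% to 3.27%). This class overlapped with the evenly spaced dyads. Among its intermediate dyads 40.5% were evenly spaced and 15.1% lay on chromosomes, against 21.4% and 22.2% of the intermediate dyads with both. CG-only intermediate dyads lay mostly on chromosomes (88.3%) and had a median coverage of 19.1 reads and a median strand difference of 4.89 points. Of the intermediate dyads with other contexts nearby, 19.97% lay on chromosomes, with a median coverage of 29.2 reads and a median strand difference of 8.42 points.

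Neighbouring dyads were examined to see how far an intermediate level extends. The nearest dyad was itself intermediate for 16.2% of intermediate dyads (95% exact binomial interval 15.6% to 16.9%), compared with 1.71% of high dyads and 3.11% of all dyads. The share was 27.0% where the nearest dyad was 2 to 10 bp away, 17.3% at 11 to 50 bp, 12.5% at 51 to 100 bp and 3.91% beyond 1000 bp. Over all dyads the shares were 2.297%, 2.81%, 5.13% and 2.19% at these distances. Even so, the nearest dyad was high for 51.3% of intermediate dyads, and its median level was 85.5%. The level of an intermediate dyad and that of its nearest dyad correlated weakly, with a Pearson r of 0.183 (n = 11946) and of 0.256 within 50 bp (n = 6124). Intermediate dyads with no intermediate dyad directly beside them within 200 bp made up 80.1% of the set, pairs 13.0%, and 5 rows held 10 dyads or more. On the chromosomes alone the nearest dyad was intermediate for 25.4%.

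**Figure D4:**
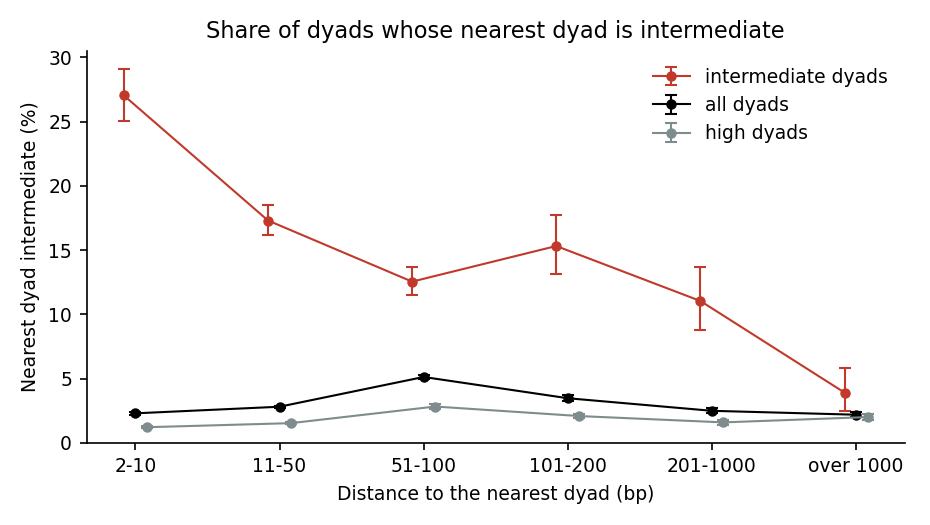
Share (%) of dyads whose nearest dyad is intermediate by the distance to it (bp) for intermediate dyads (red), all dyads (black) and high dyads (grey); bars are 95% exact binomial intervals. The share is 27.0% at 2 to 10 bp and 3.91% beyond 1000 bp for intermediate dyads, and 2.297% and 2.19% for all dyads.

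The longest rows on the chromosomes at ordinary coverage differed among themselves in their surroundings. They were the 6 rows with most dyads among 319 rows of 2 or more. On Ca5 at 40256190 to 40256369, 11 dyads in 180 bp had a level of 37.0%, 46.8% and 40.1% in S5, against 56.6% and 50.4% in S3. The stages did not overlap, and coverage was 13.4 to 17.0 reads. On Ca6 at 23932159 to 23932688, 10 dyads had 43.6%, 37.4% and 45.5% in S5 and 43.1% and 47.5% in S3, with overlapping stages. No CHG or asymmetric cytosine was listed along this row in any library. The same was true of the 9 dyads on Ca5 at 16766329 to 16766516, with 47.3%, 48.6% and 41.5% in S5 and 56.4% and 47.1% in S3.

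The remaining rows all had other contexts nearby. On Ca4 at 24112865 to 24113037, 8 dyads had 35.1%, 25.6% and 45.1% in S5 and 39.5% and 45.5% in S3. On Ca8 at 14074354 to 14074460, 8 dyads had 43.5%, 36.5% and 43.1% in S5, against 61.4% and 48.1% in S3, with no overlap. Its strands differed by 27.3 points on average, far more than in the other 5 rows. On Ca4 at 26282211 to 26282299, 7 dyads had 42.2%, 50.1% and 38.9% in S5 and 59.7% and 47.2% in S3. S5 was lower on average in all 6 rows, and the stages overlapped in 4 of them.

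Next, the level of the intermediate dyads was compared between mid-maturation and late-embryogenesis. It was 56.1%, 55.6% and 57.2% in S5 replicates 1, 2 and 3, against 58.8% and 57.6% in S3 replicates 1 and 2. S5 was thus lower by a small margin with no overlap, at 56.3% ± 0.812 (SD, n = 3) and 58.2% ± 0.796 (SD, n = 2). The difference was -1.90 points (exact permutation test over libraries, two-sided p = 0.2, where the smallest possible value is 0.1). High dyads had 94.1% ± 0.336 at S5 and 93.9% ± 0.157 at S3, with overlapping libraries (0.15 points, exact permutation test, p = 0.8). The gap between intermediate and high dyads was -37.8 points at S5 and -35.7 points at S3, a difference of -2.05 points with no overlap (exact permutation test, p = 0.1). Chosen and read without S5 replicate 3, intermediate dyads differed by -1.86 points. None of these tests could reach 0.05 with 5 libraries.

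The choice itself leans on the stages, since 3 of the 5 libraries that set the mean were S5. A dyad that is low at S5 enters the band more easily than one that is low at S3. With the stages given equal weight the difference was -1.14 points, an alternative added after seeing the data. Dyads were also chosen in 1 S5 and 1 S3 library and read in the other 3, which leaves the choice with equal weights and no part in the reading. Only dyads with 10 or more reads on both strands in those 3 could be read. All 6 such choices gave a lower level at S5, by -1.89 to -0.871 points. On the chromosomes alone they ran from -0.946 to 1.87 points, and 3 of the 6 were negative. The same choices gave -0.0112 to 0.397 points in high dyads.

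The direction differed between kinds of intermediate dyads. The 8765 dyads on unplaced scaffolds had 56.1%, 55.8% and 57.9% in S5, against 59.5% and 58.5% in S3 (-2.45 points, exact permutation test, p = 0.2). The 3196 dyads on chromosomes had 56.1%, 55.2% and 55.2% in S5 and 56.6% and 55.2% in S3, and here the stages overlapped (-0.391 points, exact permutation test, p = 0.7). The evenly spaced dyads had 59.3%, 59.5% and 61.8% in S5, against 64.4% and 63.2% in S3, with no overlap (-3.53 points, exact permutation test, p = 0.2).

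CG-only intermediate dyads were higher at S5. They had 56.9%, 56.2% and 53.5% in S5, against 53.1% and 51.7% in S3 (3.16 points, exact permutation test, p = 0.2), and the groups did not overlap. The intermediate dyads with CHG or asymmetric cytosines nearby had 56.0%, 55.6% and 57.6% in S5, against 59.4% and 58.3% in S3 (-2.45 points, exact permutation test, p = 0.2). The level of the CG-only dyads minus that of the others was 0.930, 0.632 and -4.10 points in S5, against -6.31 and -6.61 points in S3. The stages differed by 5.61 points in this value with no overlap (exact permutation test, p = 0.2), and S5 replicate 3 stood between S3 and the other S5 libraries. Without it, CG-only dyads were higher at S5 by 4.18 points and the others differed by -3.06 points. In the 6 choices read in other libraries, CG-only dyads were higher at S5 by 2.10 to 6.07 points and the others lower, by -2.54 to -1.51 points. CG-only high dyads were higher at S5 by 0.587 points, with 95.8% at S5 and 95.2% at S3 and no overlap (exact permutation test, p = 0.1).

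On the chromosomes alone both directions were present. CG-only intermediate dyads there had 56.0% at S5 and 52.7% at S3 (n = 1044 dyads), and those with other contexts nearby had 55.3% at S5 and 57.5% at S3 (n = 2152 dyads). At a coverage of 20 to 25 reads, CG-only dyads had 56.1% at S5 and 52.0% at S3, where S5 replicate 3 with 52.2% fell among the S3 values of 52.9% and 51.2%. The others had 57.8% at S5 and 61.3% at S3 at this coverage.

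**Figure D5:**
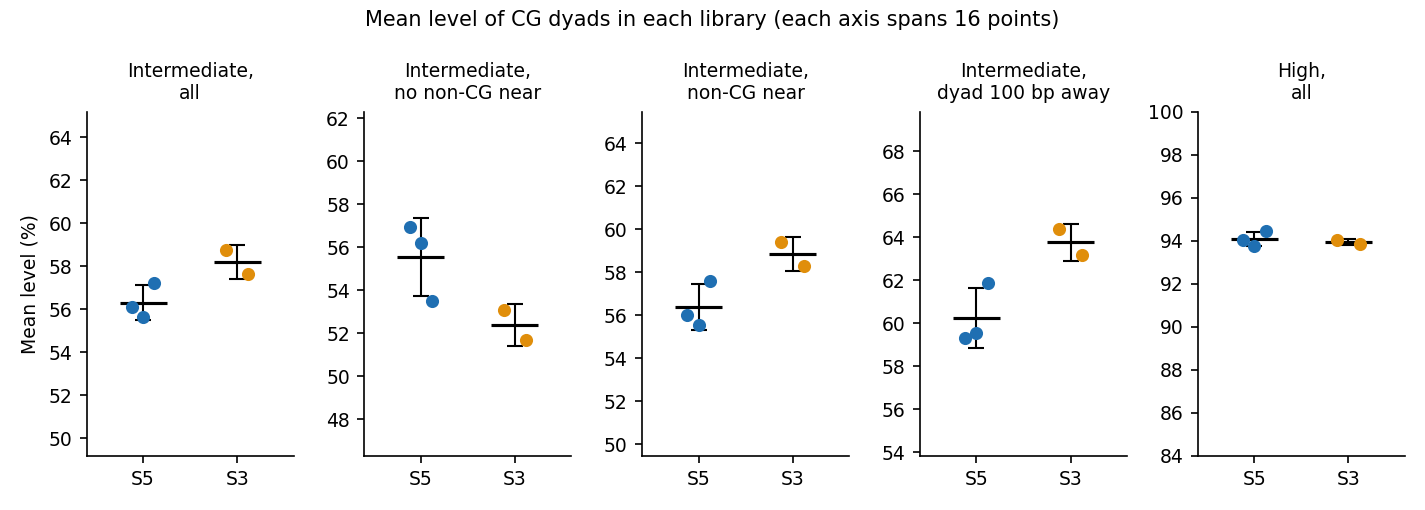
Mean methylation level (%) in each library of intermediate dyads and of high dyads. Intermediate dyads are shown for all of them, CG-only dyads, dyads with CHG or asymmetric cytosines nearby and evenly spaced dyads. S5 (blue) stands left of S3 (orange), points are libraries, bars are the mean ± SD, and every axis spans 16 points. CG-only dyads are higher at S5 (55.5% at S5 and 52.4% at S3), the other kinds of intermediate dyads are lower, and high dyads are level.

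The flanking contexts of intermediate dyads differed between stages in opposite directions. CHG level was 72.5% ± 0.849 at S5 and 75.7% ± 0.416 at S3, a difference of -3.23 points with no overlap (exact permutation test, p = 0.1). Near high dyads the difference was -2.40 points, and the stage difference near intermediate dyads minus that near high dyads was -0.826 points (exact permutation test, p = 0.1, no overlap). Over each library's own list the stage difference near intermediate dyads was -2.08 points, and that near intermediate minus that near high dyads was -0.13 points and the stages overlapped (exact permutation test, p = 0.7). Asymmetric level was 33.1% ± 1.103 at S5 and 28.8% ± 0.268 at S3, higher at S5 by 4.38 points (exact permutation test, p = 0.1), and by 2.33 points over each library's own list. It was higher by 4.68 points near high dyads, and these values did not differ beyond the spread of the libraries (exact permutation test, p = 0.3). Without S5 replicate 3, the stage difference near intermediate dyads was -3.81 points in CHG and 3.77 points in asymmetric level.

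Individual dyads were then tested for a change between the stages. By logistic regression on methylated and unmethylated reads, with a q of 0.01 or less over all dyads (Benjamini-Hochberg) and a difference of 25 points or more, 275 intermediate dyads (2.299%) were called. Over all dyads 0.123% were called. Of the 275, 117 were higher at S5, against 0.0581% of all dyads, and 158 were lower, against 0.0648%. A dyad that differs by 25 points or more between the stages can hardly have a mean above 85%, and only 7 high dyads were called, so nothing is read from this share. All 275 had the same direction on both strands, and in 261 no S5 library overlapped with an S3 library. Both follow largely from the limit of 25 points in these same libraries, so neither backs the calls. Over all dyads, all S5 libraries lay above all S3 libraries in 10.7% and below them in 10.4%. The nearest dyad lay within 200 bp for 227 of the 275 and had the same direction in 174 (76.7%). This share was 57.6% in intermediate dyads that were not called and 54.9% in all dyads. Dyads this close can be read from the same DNA fragments, and the called dyads have the largest differences. The higher share therefore does not back the calls either.

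Logistic regression counts every read as an independent observation, whereas the spread between libraries was 1.77 times that of read sampling at intermediate dyads. A replicate-aware quasi-binomial test with 1 dispersion for all dyads, 1.16, called 159 intermediate dyads, all among the 275 (61 higher and 98 lower; 0.0753% of all dyads were called). When the dispersions were estimated from the intermediate dyads themselves, an alternative added after seeing the data, 2 intermediate dyads were called (0.000556% of all dyads). The count of 275 was 144, 180 and 533 without S5 replicates 1, 2 and 3, and 142 and 137 without S3 replicates 1 and 2. It also fell to 36 with a limit of 40 points, and to 8 where 20 reads per strand were required.

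The 2 dyads were neighbours on Ca3, 77 bp apart, and are named here for that count. At 4688625 the level was 44.2%, 43.9% and 42.2% in S5, against 94.7% and 90.3% in S3 (adjusted p = 5.99e-05, quasi-binomial test with limma). At 4688702 it was 47.8%, 48.7% and 45.9% in S5, against 91.9% and 91.5% in S3 (adjusted p = 0.000245, quasi-binomial test with limma). The 5 libraries carried 53.5 to 88.5 reads per strand at the first and 52.5 to 84.5 at the second, which is above 3 times the median of at least 1 library, and CHG and asymmetric cytosines were listed near both. Levels at S5 were about the middle of the range in all 3 libraries and levels at S3 were high in both.

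By kind, 105 of the 1183 CG-only intermediate dyads were called by logistic regression, 75 higher and 30 lower at S5. Of the 10778 with other contexts nearby 170 were called, 42 higher and 128 lower. Over all dyads, 0.433% of the CG-only dyads and 0.0858% of those with other contexts nearby were called. On the chromosomes 187 of the 3196 intermediate dyads were called, against 0.205% of all dyads there, and on unplaced scaffolds 88 of the 8765, against 0.061%. Whether called or not, 59.8% of all intermediate dyads were lower at S5, with a median difference of -1.90 points and 80% of the values between -14.8 and 10.6 points. All 3 S5 libraries lay below both S3 libraries in 18.4% of intermediate dyads, against 10.4% of all dyads, and above them in 10.5%, against 10.7%.

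The 6 dyads with the largest changes on the chromosomes were taken from those at ordinary coverage that did not overlap between stages and were called by both tests fitted over all dyads, 50 higher and 55 lower. On Ca5 at 37214104 the level was 97.5%, 85% and 82.9% in S5, against 33.8% and 46.1% in S3 (adjusted p = 8.63e-07, logistic regression). On Ca6 at 7676894 it was 84.9%, 82.9% and 73.9% in S5, against 39.0% and 34.6% in S3 (adjusted p = 7.47e-07, logistic regression). On Ca2 at 1812406 it was 91.5%, 80.4% and 76.7% in S5, against 44.4% and 33.9% in S3 (adjusted p = 1.48e-05, logistic regression). These 3 dyads were intermediate at S3 and near or above 75% at S5, with 10.5 to 21.5 reads per strand.

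Among the dyads that were lower at S5, Ca2 at 7125984 had 31.4%, 31.0% and 39.6% in S5, against 84.6% and 94.0% in S3 (adjusted p = 8.62e-11, logistic regression). Its nearest dyad with 10 or more reads on both strands in all libraries was 9327 bp away. Ca2 at 2968099 had 29.98%, 21.2% and 26.7% in S5, against 80.2% and 76.5% in S3 (adjusted p = 1.14e-10, logistic regression), and the nearest dyad, 76 bp away, had 44.0% at S5 and 88.5% at S3. Ca3 at 37538103 had 49.4%, 42.5% and 40.3% in S5, against 97.5% and 92.3% in S3 (adjusted p = 1.34e-09, logistic regression). Its nearest dyad, 9 bp away, had 44.3% at S5 and 93.0% at S3. These 2 neighbours had the direction of the named dyad, whereas the nearest dyad of Ca2 1812406, 100 bp away, had 49.4% at S5 and 57.4% at S3 and thus the opposite one. None of the 6 was called when the dispersions were estimated from the intermediate dyads.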

How the data were processed

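In total, 5 whole genome bisulphite libraries of Himchana 1 seeds, S5 (3) and S3 (2), were used, grouped by their labels. Per the labels and the study's methods, the authors filtered reads in NGS QC Toolkit, aligned them to kabuli chickpea version 1 with Bismark (version 0.14.3), kept unique alignments and called methylcytosines with 5 or more reads (binomial p up to 0.0001). The deposited coverage is a read count for each cytosine, and the deposited level the percent of reads with C. Their product gave whole methylated reads in 100% of values (within 0.01). The intermediate dyads, the divisions of them and all lists were chosen with earlier results of these data known.

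Dyads were joined by position and strand, and positions on repeated lines were left out. Coverage summed over the listed cytosines was 412206506 to 544021909 per library, where a read counts once for each listed cytosine it covers. At the minimum of 10 reads a level moves in steps of 10 points. Levels were compared over libraries by exact permutation, and sets of dyads by exact sign-flip within libraries. Single dyads were tested by logistic regression on reads, with a quasi-binomial alternative (squeezeVar of limma 3.58.1, R 4.3.3). Both had Benjamini-Hochberg adjustment over all 359808 dyads. The dispersions of the alternative over all dyads converged on 1 value. They were taken from dyads with 10 or more methylated and 10 or more unmethylated reads. Named rows were the 6 with most dyads on chromosomes, neighbours at most 200 bp apart, at up to 3 times the median coverage; named single dyads were the 3 most higher and 3 most lower as given in the text. Python 3.11.15, numpy 2.4.6 and scipy 1.17.1 were used. Logistic regression and the chi-square test were tested on simulated reads that held no spread between libraries of a stage. The quasi-binomial and Cochran-Mantel-Haenszel tests were not tested in this way. The labels give the libraries of a stage as replicates. The permutation tests measure the spread between them. The p-values of logistic regression rest on pooled reads and do not measure that spread. The quasi-binomial test over all dyads allows for it only by 1 common dispersion. Gene features and sequences were not analysed here.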

Additional observations from a re-analysis of the deposited data

How the results depend on the processing

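The lower CHG number, CHG level and asymmetric level near intermediate dyads kept their direction under every alternative run (-10.9 to -1.47 cytosines, -15.9 to -5.90 points and -12.4 to -2.37 points). So did the lower level of all intermediate dyads at S5 (-2.88 to -0.391 points), although on the chromosomes 3 of the 6 choices read in other libraries turned it. Their coverage was higher in every alternative, leaving aside the one that fixed it at 20 to 25 reads (log2 ratio 0.10 to 1.27). The number of asymmetric cytosines turned to 0.723 against dyads above 95%. The small stage difference of high dyads turned to -0.0580 points with at least 20 reads, and leaving out single libraries gave -0.0131 to 0.333 points. The replicate numbers gave no clear sign of pairing the samples. The difference between replicates 1 and 2 at S5 correlated with that at S3 at 0.0510 in intermediate dyads and 0.0157 in all. Read sampling enters these differences, so a low correlation cannot exclude a pairing. With the replicate block, which leaves out S5 replicate 3, the stage difference was -2.35 points in intermediate and -0.0312 points in high dyads, and 350 intermediate dyads were called (Cochran-Mantel-Haenszel test). With a minimum of 5 reads there were 24392 intermediate dyads, a held-out level of 61.0%, 453 calls between stages and an intermediate nearest dyad for 18.4%. With 20 reads there were 3572 dyads, 55.5% and 8 calls. A band of 30 to 60% gave 5320 dyads, 50.9%, 118 calls between stages, 58 calls within stages and 13.3%. Chromosomes alone gave 3196 dyads, 174 calls, 11 within stages and 25.4%. Leaving out deeply covered dyads gave 9 within stages. A coverage of 20 to 25 reads gave 2214 dyads, 60.3%, 86 calls, 3 within stages and 13.3%. The nearest dyad was intermediate for 20.3% within 50 bp and for 18.9% without evenly spaced dyads. Calls between stages were 159 in the quasi-binomial test, 2 with dispersions from intermediate dyads and 36 at 40 points. Without single libraries they were 137 to 533, calls within stages 54 to 103, and the nearest dyad was intermediate for 16.9% to 18.0%. The causes were not tested. The choices by coverage of 20 to 25 reads, equal stage weights, other libraries, even spacing, own lists and intermediate dispersions were added after seeing the data. Gene features were not analysed here. Cytosines below the call are not listed, so the largest losses at a stage are missing.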
